A study of Mus musculus with 4 samples.

Results

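MYC, MITF and related factors of the basic helix-loop-helix (bHLH) family were examined through the open chromatin assigned to the genes that encode them, in ATAC-seq libraries of mouse bone marrow-derived macrophages (BMDMs). ATAC-seq maps open chromatin as the DNA into which the Tn5 transposase can insert sequencing adapters. The genes were Myc, Max, Mxd1, Bhlhe40, Bhlhe41, Mitf, Tfeb, Tfec, Tfe3 and Usf1. Peaks from the 4 libraries were joined into 1 region wherever they shared 1 bp or more, and a region was counted here when its highest peak carried the name of 1 of these 10 genes. This gave 79 regions of the 60710 in the series. The gene name is that of the nearest annotated transcription start site (TSS), so it gives a position and not a tested target.

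The control group (n = 2 libraries) was untreated wild-type BMDMs, and the IL-4 group (n = 2 libraries) was wild-type BMDMs exposed for 1 h to 20 ng/ml of IL-4. The cells of either group came from C57BL/6 mice of 8 to 12 weeks whose marrow had been cultured for 6 days with the supernatant of L929 cells, which supplies the macrophage growth factor M-CSF. The controls therefore carried the same M-CSF exposure as the treated cells, and the culture limits the model to macrophages made outside the animal. The methods describe the libraries as biological replicates but do not say whether a control and an IL-4 library share an animal, so p-values refer to these libraries only.

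bHLH-zip proteins bind DNA as dimers through a basic region, and most recognise a short palindrome called the E-box, CACGTG. MYC activates genes of growth and metabolism only as a dimer with MAX, and MXD1 competes for MAX as a repressor. MITF, TFEB, TFEC and TFE3 form the MiT/TFE family, which controls lysosome and autophagy genes and, in osteoclasts and macrophages, degradative enzymes. TFEC is found mostly in cells of the macrophage lineage. USF1 is a broadly expressed E-box factor. BHLHE40 and BHLHE41 have an Orange domain in place of a zipper and mostly repress. IL-4 acts on macrophages through STAT6, which prefers TTC and GAA separated by 4 bases (TTCNNNNGAA), whereas other STAT proteins prefer a spacing of 3 bases.

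Of the 79 regions, 4 had a peak in both IL-4 libraries and in neither control library (5.06%, against 2.53% of all regions), and 4 had a peak in both control libraries and in neither IL-4 library (5.06%, against 4.33%). Of the 4 IL-4-only regions, 3 lay at Tfec. The sequences of 2 Tfec regions, both with TTCNNNNGAA, are shown here because the presence of a peak differed by group there. Both are the plus strand of GRCm38.p6, the assembly behind mm10, 5′ to 3′, and capitals mark TTCNNNNGAA. Tfec runs on the minus strand of chromosome 6. The promoter region at chr6:16898290-16898797 covers the annotated Tfec start (position 16898441), and the stretch shown, chr6:16898498-16898797, lies upstream of that start and holds 2 sites, which are TTCCCCAGAA and TTCTTCAGAA. The region in intron 2 is chr6:16846651-16846790.
Tfec promoter: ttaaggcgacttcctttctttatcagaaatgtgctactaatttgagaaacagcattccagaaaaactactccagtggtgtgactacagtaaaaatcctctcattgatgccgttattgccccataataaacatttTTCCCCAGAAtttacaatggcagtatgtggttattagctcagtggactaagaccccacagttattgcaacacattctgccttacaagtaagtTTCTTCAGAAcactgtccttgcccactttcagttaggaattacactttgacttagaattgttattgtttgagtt
Tfec intron 2: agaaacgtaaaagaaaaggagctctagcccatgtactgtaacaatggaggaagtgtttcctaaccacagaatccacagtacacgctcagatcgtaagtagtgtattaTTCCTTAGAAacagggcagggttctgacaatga

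The fourth region of this kind lay in intron 1 of Mitf, chr6:97814326-97814465. It held no TTCNNNNGAA and had, at its right edge, the PU.1-type sequence GAGGAAGT on the minus strand (capitals, read here on the plus strand). PU.1 is a factor that sets macrophage identity.
Mitf intron 1, IL-4-only: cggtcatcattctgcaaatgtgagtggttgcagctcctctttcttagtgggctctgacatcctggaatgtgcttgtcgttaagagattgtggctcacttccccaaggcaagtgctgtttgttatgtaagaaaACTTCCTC

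For comparison, 2 other regions with TTCNNNNGAA are shown, again with this motif in capitals. A second region of Mitf intron 1 had a peak in all 4 libraries and held 2 sites at the ends of the stretch shown (chr6:97820649-97820948). An intergenic region upstream of Max (chr12:77092491-77092719) had a peak in the control libraries only, so the motif was not restricted to regions with a peak after IL-4.
Mitf intron 1, all libraries: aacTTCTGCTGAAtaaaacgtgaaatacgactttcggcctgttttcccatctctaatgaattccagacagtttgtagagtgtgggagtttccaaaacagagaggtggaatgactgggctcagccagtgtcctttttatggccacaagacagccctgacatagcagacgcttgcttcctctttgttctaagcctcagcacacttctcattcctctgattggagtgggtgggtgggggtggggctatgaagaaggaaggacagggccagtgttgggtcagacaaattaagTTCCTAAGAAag
Max upstream, control-only: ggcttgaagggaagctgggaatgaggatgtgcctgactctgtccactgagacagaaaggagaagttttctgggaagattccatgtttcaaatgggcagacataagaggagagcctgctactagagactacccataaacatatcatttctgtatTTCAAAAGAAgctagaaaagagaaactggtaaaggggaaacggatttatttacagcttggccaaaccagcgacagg

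The E-box, CACGTG, was present in 9 of the 79 regions (11.4%, against 6.12% of all regions), at 5 of the 10 genes. Of its 11 sites, 7 are shown with 12 bases on either side, to show the sites at genes that encode E-box factors themselves (capitals mark CACGTG). The sites of Max lie within the region over its start (chr12:76962234-76962263 and chr12:76962509-76962538) and in intron 3 (chr12:76943250-76943279). Those of Bhlhe41 lie near its start (chr6:145865556-145865585), farther upstream (chr6:145866745-145866774) and downstream of the gene, where 2 sites stand close together (chr6:145855853-145855882 and chr6:145855879-145855908). Both Bhlhe40 regions held 1 E-box each, and the last 2 sites were at Tfeb and Tfe3.
Max start, first site: tcggccccctaaCACGTGaccgggctcacc
Max start, second site: gggaagacaggaCACGTGgagggagctggg
Max intron 3: agtgctcttggtCACGTGggcaggctgccc
Bhlhe41 start: cagcacccagctCACGTGcggaacgtacca
Bhlhe41 upstream: gctggagcgggtCACGTGccgggagcctcc
Bhlhe41 downstream, first site: ccgcccccatctCACGTGcggctcagcgtg
Bhlhe41 downstream, second site: cgtgcgcagtgaCACGTGtgaaagcacgcg

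The measure used throughout is peak height, the deposited peak score read as −log10 of the q-value, which states how strongly a peak stands out from the background of its own library. The libraries held between 39462 and 45250 peaks, and their read depth is unknown. Over all regions with a peak in every library, the median height was 12.5 and 11 for control and 11.1 and 8.86 for IL-4, so IL-4 replicate 2 was the lowest of the 4, and folds are given only after normalisation. "No peak" means that nothing passed the peak caller in that library and not that the DNA was closed. Of 8 macrophage marker genes, 7 had a peak within 1 kb of their start in every library, the exception being Csf1r, whereas 0 of 4 T cell, 0 of 4 B cell and 0 of 3 fibroblast markers did, and 1 of 4 neutrophil markers (S100a8) did.

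The 10 genes differed widely in how many regions they had. Mitf had 20 regions, Max and Tfec had 12 each, Tfeb had 10, Myc and Bhlhe41 had 7 each, Mxd1 had 4, Tfe3 had 3, and Bhlhe40 and Usf1 had 2 each. By annotation, 37 of the 79 regions were intronic, 26 were intergenic and 14 were promoters. A peak in all 4 libraries was present in 31 of the 79 (39.2%, against 41.9% of all regions), in 3 libraries in 15, in 2 in 14 and in 1 only in 19 (24.1%, against 29.6% of all regions). The regions present in a library numbered 56 and 54 in control and 56 and 50 after IL-4 (55 ± 1.41 against 53 ± 4.24, SD, n = 2 each). The groups overlapped, and a two-sided exact permutation test gave p = 1.0000, where 2 libraries against 2 cannot go below 0.33. Without IL-4 replicate 2 the difference of -2 became 1.

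Gene by gene, the numbers moved in both directions. The total number of peaks was 45250 and 41885 in control and 41978 and 39462 after IL-4. Its bearing on the counts that follow was not tested at any gene. At Tfec, 7 and 5 regions had a peak in control and 10 and 10 after IL-4. Mitf had 11 and 12 regions in control and 14 and 13 after IL-4. At Max the numbers were 9 and 8 in control and 5 and 6 after IL-4, at Bhlhe41 they were 7 and 6 against 5 and 4, at Mxd1 they were 3 and 3 against 1 and 1, and at Tfe3 they were 3 and 3 against 2 and 2. The groups did not overlap at these 6 of the 10 genes, and they did not overlap at 17.3% of all genes with 2 to 20 regions, the range of the members. Within that range the genes were not matched to the members on number of regions, so the shares are not like for like. Each of the 6 reached the smallest possible exact permutation p of 0.33 (0.5556 after adjustment over the 10 genes), so none passed a threshold of 0.05 and none could have. The bars of regions per library show the 2 genes with more regions after IL-4 and the 4 with fewer.

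**Figure D1:**
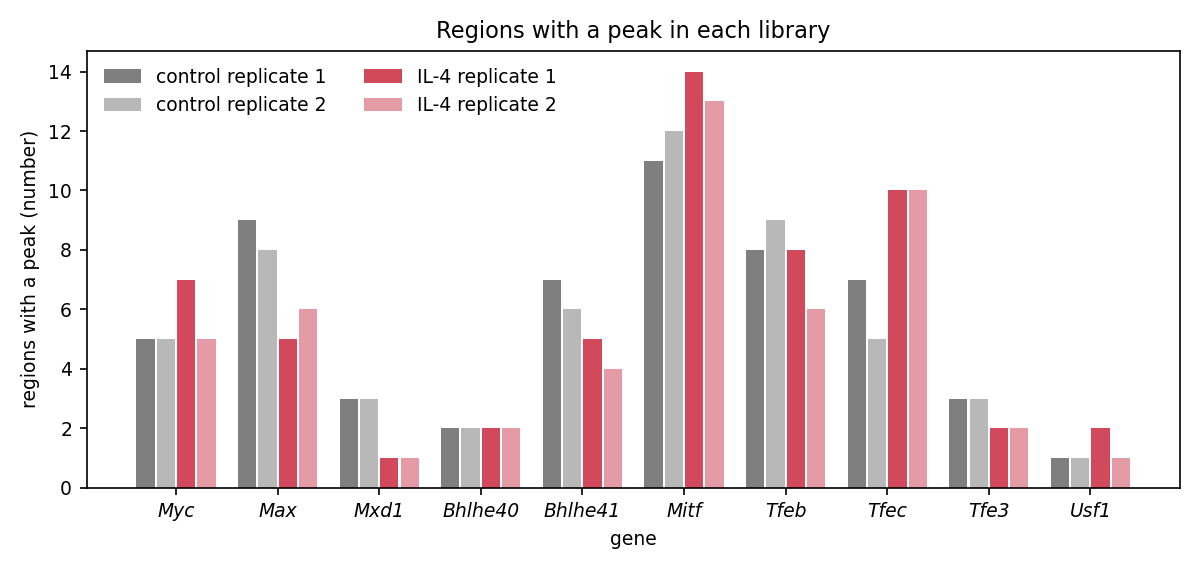
Number of regions with a peak in each library (y axis) for each of the 10 genes (x axis), with control libraries in grey and IL-4 libraries in red. Tfec has 7 and 5 regions in control and 10 in both IL-4 libraries, whereas Mxd1 has 3 in both control libraries and 1 in both IL-4 libraries.

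Among the regions confined to 1 group, the IL-4-only regions were 3 at Tfec and 1 at Mitf, both MiT/TFE genes. The control-only regions were spread over Max, Mxd1, Bhlhe41 and Tfe3, of which Tfe3 is also a MiT/TFE gene. Tfeb, of the same family, had no region of either kind. These counts have no test. With 1 library left out, fewer libraries define a group, and the counts were 7 to 9 IL-4-only and 5 to 11 control-only. At each of the 4 IL-4-only regions the lower of the 2 heights lay under 7.37, the median of all peaks pooled, so with only peaks above that median the count was 0, and the control-only count was 1.

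Heights were compared by limma in the 31 regions with a peak in every library, within a fit of all 25442 such regions. The method draws the variance of each region towards that of all regions of like height. Its SE and p are therefore not the replicate spread of that region alone and can be smaller than it. No member region passed an adjusted p of 0.05 in either direction, where the share called over all regions was 0.0157% higher and 0.00786% lower after IL-4 (4 and 2 regions). An unadjusted p under 0.05 was reached by 2 of the 31 (6.45%), against 8.28% of all regions. Both normalised IL-4 heights lay above both control heights in 6 of the 31 (19.4%, against 19.2% of all regions) and below them in 7 (22.6%, against 18.6%). The median log2 change was -0.16 for the 31 regions and -0.000648 for all regions, with 13 members above 0 and 18 below. The median of the members was 0.10 without IL-4 replicate 1 and lay between -0.04 and -0.01 when any other library was left out. The plot of the 31 changes shows the spread around 0 and the Tfeb locus at both ends of it.

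**Figure D2:**
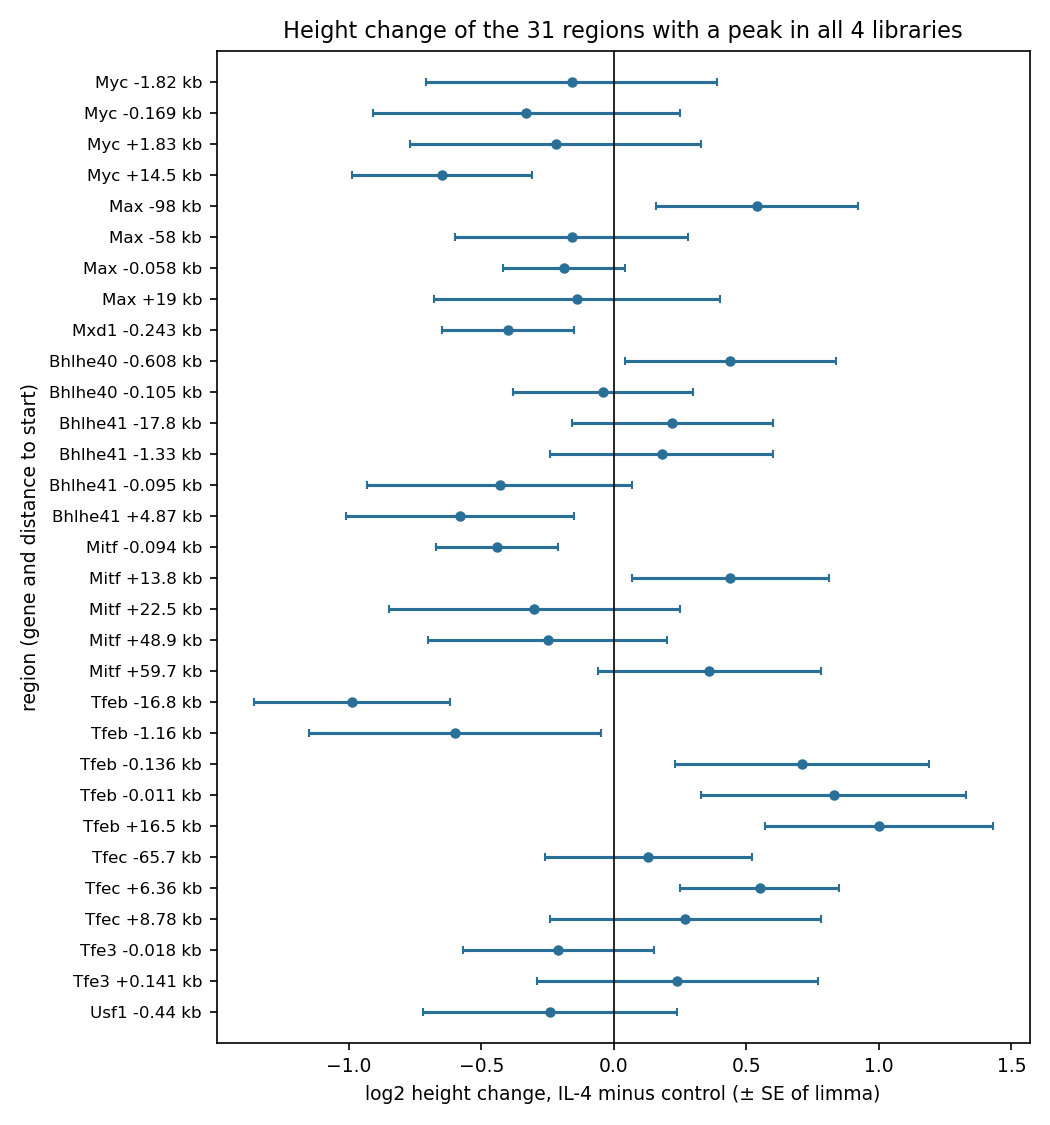
Log2 height change from control to IL-4 (x axis, points) with the standard error of limma (bars) for the 31 regions present in all 4 libraries, labelled by gene and distance to the start in kb. The lowest value is -0.99 (Tfeb, 16.8 kb upstream) and the highest is 1.00 (Tfeb, 16.5 kb downstream), and 13 of the 31 points lie above 0.

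At the start sites themselves, most genes had a peak in both groups. RefSeq places 17 distinct starts at the 10 genes, and 12 of them, from 9 genes, had a peak within 250 bp in all 4 libraries. The tenth gene was Tfec, whose only annotated start had a peak in the IL-4 libraries alone. Of the 3 Mitf starts, the first (chromosome 6, position 97807058) had a peak in every library, the second (97929817) had a peak of height 1.63 in control replicate 2 only, and the third (97991783, transcript NM_008601) had none. At Tfeb, the 2 upstream starts (chromosome 17, positions 47737037 and 47737931) were marked in every library and the downstream start (47785744) in none. The Usf1 start at 171411681 on chromosome 1 had no peak over it. The peak of the neighbouring start at 171411313, which was marked in all 4, reached its window in replicate 1 of each group only. The plot of heights at the region nearest to each start shows Tfec as the 1 gene with no control peak.

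**Figure D3:**
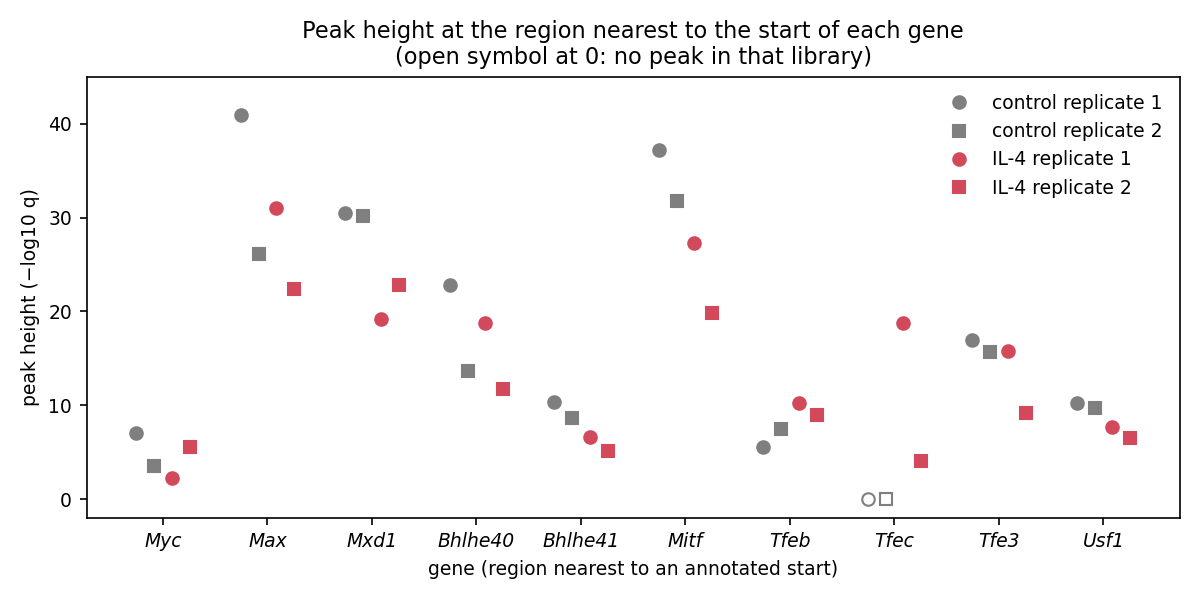
Peak height (y axis, −log10 q) in each library at the region nearest to an annotated start of each gene (x axis), with control in grey, IL-4 in red, circles for replicate 1, squares for replicate 2 and open symbols at 0 for no peak. Tfec has open symbols in both control libraries and heights of 18.78 and 4.05 in the IL-4 libraries, and Max and Mitf hold the tallest control peaks, 40.98 and 37.22.

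Tfec is described first, as the gene with the most IL-4-only regions (3 of its 12). At the promoter, 137 bp upstream of the start, neither control library had a peak and the IL-4 libraries had heights of 18.78 and 4.05. The replicates thus shared the peak but not its size. In intron 2, 51.7 kb downstream, the IL-4 heights were 4.11 and 5.05, again with no peak in either control library. Both heights in intron 2 lay below the library medians of 6.41 to 8.04 and above the lowest height that a library lists, 1.3 to 1.32. At the promoter, 4.05 was also below those medians and 18.78 was above them.

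The strongest Tfec region stood in intron 1, 6.36 kb downstream of the start (chr6:16891948-16892278), and was present in every library. Its heights were 16.34 and 18.13 in control and 18.7 and 26.88 after IL-4. Both IL-4 values were above both control values, and the log2 change of 0.55 (SE 0.30, adjusted p = 0.647 by limma) did not pass the test. It was 0.17 without IL-4 replicate 2 and 0.92 without IL-4 replicate 1. The other 2 Tfec regions with a peak in every library changed by 0.13 (65.7 kb upstream) and 0.27 (8.78 kb downstream) on the log2 scale, with adjusted p of 0.962 and 0.935. The plot of the Tfec locus sets the IL-4-only regions beside those present in every library.

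**Figure D4:**
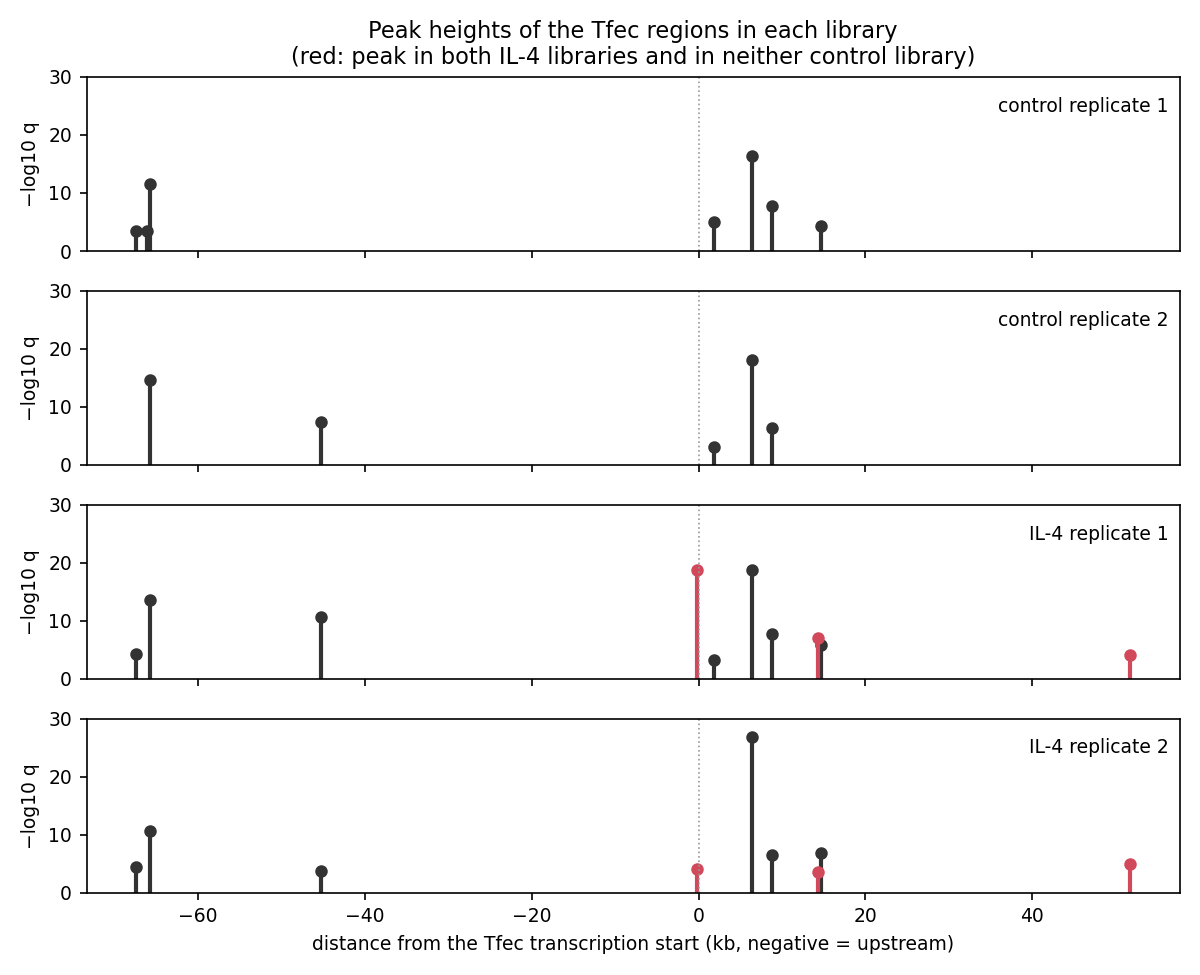
Peak height (y axis, −log10 q) of each Tfec region against its distance from the transcription start (x axis, kb), in 1 panel per library, with IL-4-only regions in red and the other regions in dark grey. A further region 227 kb downstream with a peak in IL-4 replicate 2 only (height 3.73) is left out, and the 3 red peaks, absent from both control panels, include those at the start and 51.7 kb downstream.

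Mitf, which gives the family its name and is needed for osteoclast and pigment cells, had its highest region at its first start, 94 bp upstream (chr6:97806780-97807148). The heights there were 37.22 and 31.81 in control and 27.28 and 19.83 after IL-4. Both IL-4 libraries were below both control libraries, with a log2 change of -0.44 (SE 0.23, adjusted p = 0.623 by limma). In intron 1, 13.8 kb downstream (chr6:97820558-97821124), the region with 2 TTCNNNNGAA sites had heights of 14.7 and 11.15 in control and 16.56 and 13.33 after IL-4, a log2 change of 0.44 (SE 0.37, adjusted p = 0.809). Its raw heights overlapped between groups and its normalised heights did not. The IL-4-only region 7.32 kb downstream, in the same intron, had heights of 4.41 and 4.32. Of the 20 Mitf regions, 5 had a peak in every library 1 was IL-4-only and 14 had a peak in some other set of 1 to 3 libraries.

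Tfeb, a regulator of lysosome genes, had the lowest and the highest log2 change of the 31 regions, the only 2 at an unadjusted p under 0.05, and neither passed the adjusted test. The region 16.8 kb upstream of the downstream start (chr17:47768691-47769207), in intron 1 of NM_001161723, had heights of 23.83 and 18.56 in control and 13.12 and 6.4 after IL-4. The groups did not overlap, and the log2 change was -0.99 (SE 0.37, adjusted p = 0.418 by limma). The region 16.5 kb downstream of the second start (chr17:47754244-47754592), in the same intron, had heights of 21.54 and 4.48 in control and 17.61 and 17.12 after IL-4. There control replicate 2 alone was low, and the log2 change of 1.00 (SE 0.43, adjusted p = 0.531) became -0.04 without it. At the first start, the region 11 bp upstream (chr17:47736895-47737245) had heights of 5.57 and 7.43 in control and 10.27 and 8.99 after IL-4, and the region 136 bp upstream of the second start (chr17:47737544-47738095) had 7.55 and 7.39 against 10.27 and 10.28. Both IL-4 libraries were the higher at both starts, with log2 changes of 0.83 (SE 0.50, adjusted p = 0.692) and 0.71 (SE 0.48, adjusted p = 0.741).

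Tfe3, the X-linked member of the family, had heights of 16.93 and 15.64 in control and 15.8 and 9.12 after IL-4 at the region 18 bp upstream of its first start (chrX:7762459-7762822). The groups overlapped, and the log2 change was -0.21 (SE 0.36, adjusted p = 0.928). At the intronic region 141 bp downstream of another start (chrX:7763879-7764326) the heights were 5.84 and 5.95 in control and 5.99 and 5.81 after IL-4, with a log2 change of 0.24 (SE 0.53, adjusted p = 0.943). A control-only region lay 12.6 kb downstream of a start, beyond the gene, with heights of 5.36 and 3.78 and 1 CACGTG site.

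Myc, the growth-promoting partner of MAX, had low peaks at its start and a higher intergenic region downstream. At 169 bp upstream (chr15:61985030-61985314) the heights were 7.04 and 3.55 in control and 2.2 and 5.52 after IL-4, so the groups overlapped (log2 change -0.33, SE 0.58, adjusted p = 0.929). The sign depended on single choices, since leaving out control replicate 1 gave 0.07, leaving out IL-4 replicate 1 gave 0.59, and joining peaks within 100 bp, which adds the neighbouring region, gave 0.44. The region 14.5 kb downstream (chr15:61999636-61999978) had heights of 19.09 and 22.92 in control and 13.72 and 9.61 after IL-4. Both IL-4 libraries were the lower there, with a log2 change of -0.65 (SE 0.34, adjusted p = 0.63). All 4 Myc regions with a peak in every library had a negative change, and none passed the test. The groups were separate after normalisation at 1 of them only, the region 14.5 kb downstream. The changes 1.82 kb upstream and 1.83 kb downstream were -0.16 and -0.22 (SE 0.55 each, adjusted p = 0.966 and 0.951 by limma). A region 17.7 kb downstream held TTCNNNNGAA and had a peak in IL-4 replicate 1 only (height 6.74). It was picked after its values were seen.

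Max, the shared partner of the network, had its highest region over its start, 58 bp upstream (chr12:76962045-76962719), with 2 of the E-boxes shown above. Its heights were 40.98 and 26.1 in control and 31.01 and 22.43 after IL-4. The groups overlapped, and the log2 change was -0.19 (SE 0.23, adjusted p = 0.883) and became 0.09 without control replicate 1. A region 98 kb upstream (chr12:77060086-77060393) had heights of 13.03 and 10.99 in control and 15.06 and 14.75 after IL-4, both IL-4 values being the higher (log2 change 0.54, SE 0.38, adjusted p = 0.758). The control-only region 130 kb upstream had heights of 11.41 and 3.78.

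Mxd1, the repressor that competes for MAX, had its highest region 243 bp upstream of the start (chr6:86669157-86669646). Its heights were 30.51 and 30.2 in control and 19.17 and 22.79 after IL-4. The 2 groups did not overlap, and the log2 change was -0.40 (SE 0.25, adjusted p = 0.702). It was -0.14 without IL-4 replicate 1 and -0.64 without IL-4 replicate 2. A control-only region in intron 3, 8.45 kb downstream (chr6:86660603-86660824), had heights of 6.45 and 3.78. The other 2 of the 4 Mxd1 regions had a peak in a single control library.

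Bhlhe40 and Bhlhe41, which encode closely related repressors of circadian and immune genes, differed from each other in layout. Both Bhlhe40 regions stood at the promoter and had a peak in all 4 libraries. The region 105 bp upstream (chr6:108660301-108660736) had heights of 22.77 and 13.63 in control and 18.75 and 11.7 after IL-4, a log2 change of -0.04 (SE 0.34, adjusted p = 0.987). The region 608 bp upstream (chr6:108659374-108660246) had 9.87 and 12.78 against 16.87 and 9.87, a log2 change of 0.44 (SE 0.40, adjusted p = 0.832). The groups overlapped at both, and raw heights differed more between replicates than between the group means. Without control replicate 1 the first became 0.25. With peaks joined within 100 bp, both regions become 1, with a log2 change of -0.04.

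At Bhlhe41 the regions at the start and in the last exon had the lower heights in the IL-4 libraries. The start, 95 bp upstream (chr6:145865401-145865698), had heights of 10.35 and 8.66 in control and 6.66 and 5.13 after IL-4 (log2 change -0.43, SE 0.50, adjusted p = 0.882). The region in the last exon, 4.87 kb downstream (chr6:145860465-145860636, 3′ UTR), had 14.98 and 13.89 against 7.85 and 8.56 (log2 change -0.58, SE 0.43, adjusted p = 0.769). The groups did not overlap at either, and neither passed the test. A second promoter region, 916 bp upstream (chr6:145866083-145866530), was control-only, with heights of 5.09 and 5.66. The highest region, intergenic and 17.8 kb upstream (chr6:145882998-145883342), had 9.8 and 20.48 in control and 16.54 and 12.1 after IL-4, and its log2 change of 0.22 (SE 0.38, adjusted p = 0.929) became -0.42 without control replicate 1.

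Usf1 had 1 region in every library, at the promoter (chr1:171411048-171411465), 440 bp upstream of the start of NM_009480. Its heights were 10.28 and 9.68 in control and 7.73 and 6.47 after IL-4. Both IL-4 libraries were the lower, also after normalisation, and the log2 change was -0.24 (SE 0.48, adjusted p = 0.938). The only other Usf1 region had a peak of height 3.64 in IL-4 replicate 1.

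The motif counts over the 79 regions were set beside those over all 60710. TTCNNNNGAA was present in 8 of 79 regions (10.1%, against 7.22% of all regions). It was present in 3 of the 4 IL-4-only regions, where the share over all 1534 IL-4-only regions was 30.9%, in 1 of the 4 control-only regions (2.24% of all 2630), in 1 of the 31 regions with a peak in every library (8.92%) and in 3 of the other 40 (5.09%). The 3-base spacing, TTCNNNGAA, was present in 7 regions (8.86%, against 6.9%) and in none of the IL-4-only ones. The 9 regions with CACGTG were 3 of Bhlhe41, 2 of Bhlhe40, 2 of Max, 1 of Tfeb and 1 of Tfe3. No region of Myc, Mxd1, Mitf, Tfec or Usf1 held it. By length, CACGTG was present in 0 of 32 member regions under 200 bp (2.98% of all regions of that length), in 5 of 22 of at least 200 and under 300 bp (5.75%), in 2 of 18 of at least 300 and under 500 bp (9.62%) and in 2 of 7 longer ones (18.2%). CATGTG, the E-box form that MITF also binds, was present in 11 regions (13.9%, against 15.6%). TGANTCA, the AP-1 site, was present in 18 (22.8%, against 21.8%), and GAGGAAGT in 12 (15.2%, against 9.87%). Among the RefSeq promoters of these genes, TTCNNNNGAA was present in 2 of 14 (1 each of Tfec and Tfeb), against 6.95% of 32851 promoters. No Tfeb region held TTCNNNNGAA, so the match in its promoter lies outside the peaks. A match describes letters and does not show binding.

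The wider network gave no call. The 14 other bHLH-zip genes, from Mycn to Srebf2, had 50 regions, 25 of them in every library. Of these, 0 were called by limma, where the shares over all regions were 0.0157% higher and 0.00786% lower. The same shares stand beside the calls of the lists that follow. An unadjusted p under 0.05 was reached by 0, against 8.28% of all regions, and the median log2 change was 0.00258. No region was confined to 1 group, against 2.53% IL-4-only and 4.33% control-only of all regions. The highest promoter of these genes was that of Mlxip, a glucose-sensing partner of MLX, with heights of 27.2 and 22.5 in control and 17.68 and 19.84 after IL-4 (log2 change -0.24, SE 0.28, adjusted p = 0.879).

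The 11 genes that regulate MiT factors, such as those for folliculin, the RAG GTPases and mTOR, had 52 regions, 23 of them in every library, with 0 called and 3 at an unadjusted p under 0.05 (8.28% over all regions). Their median log2 change was -0.00371. One region of Rragb was IL-4-only (heights 2.95 and 2.49) and 4 were control-only, at Fnip2, Rragd, Rragc and Ywhaz, where the shares over all regions were 2.53% and 4.33%. The smallest p belonged to a region 24888 bp downstream of the Fnip2 start, with heights of 34.6 and 42.53 in control and 23.96 and 18.2 after IL-4 (log2 change -0.74, SE 0.23, adjusted p = 0.284). FNIP2 is a partner of folliculin. The other 2 had positive log2 changes, 1.07 at Rragc (SE 0.49, adjusted p = 0.561) and 1.17 at Ywhaz (SE 0.52, adjusted p = 0.553). The Mtor promoter had 28.66 and 23.64 against 29.27 and 18.45.

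The 10 genes known as MYC targets had 35 regions, 16 of them in every library, with 0 called, 2 at an unadjusted p under 0.05 (8.28% over all regions) and a median log2 change of -0.14. Those 2 had log2 changes in opposite directions, 1.12 at Eif4e (SE 0.50, adjusted p = 0.553) and -0.71 at Ldha (SE 0.28, adjusted p = 0.45). The nucleolin gene, Ncl, had promoter heights of 21.53 and 20.29 in control and 18.75 and 15.86 after IL-4 (log2 change -0.08, SE 0.30, adjusted p = 0.967). Cdk4, a cell cycle kinase, had 11.86 and 10.25 against 15.16 and 15.34 (log2 change 0.69, SE 0.38, adjusted p = 0.649). One region was IL-4-only (Odc1) and 1 control-only (Eif4e), where the shares over all regions were 2.53% and 4.33%.

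The 8 genes known as MiT targets in macrophages and osteoclasts had 24 regions, 9 of them in every library, with 0 called, 2 at an unadjusted p under 0.05 (8.28% over all regions) and a median log2 change of 0.03. The 3 promoter regions, of Mcoln1, Ostm1 and Sqstm1, had log2 changes of 0.75, 0.47 and 0.03 (SE 0.53, 0.42 and 0.49), with adjusted p of 0.765, 0.82 and 0.994. The 2 regions with the small p lay elsewhere and had negative changes. At Gpnmb, a lysosomal glycoprotein, a region with heights of 11.94 and 6.36 in control had 3.96 and 2.29 after IL-4 (log2 change -1.36, SE 0.55, adjusted p = 0.477). At Ctsk, a bone-degrading protease, the heights were 27.06 and 17.67 against 12.74 and 10.97 (log2 change -0.69, SE 0.33, adjusted p = 0.584). A further Ctsk region was control-only, and none was IL-4-only, where the shares over all regions were 4.33% and 2.53%.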

How the data were processed

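Per the labels, ATAC-seq libraries were made with Nextera adapters from nuclei of BMDMs, 2 control and 2 IL-4. The authors aligned the reads to mm10 with BWA 0.7.10 and SAMtools 0.1.19, called peaks in each library with MACS2 2.0.10 and annotated them with HOMER 4.2. Each deposited peak score was read as −log10 of the q-value because the lowest score is 1.3 to 1.32, close to −log10 of 0.05; no label names the unit. The methods give a q of 0.01, a score of 2. A height grows with depth and is not a count, so DiffBind, which the authors ran on reads, was not used. The start, end and TSS distance are as deposited. Handling of duplicate, mitochondrial and Tn5-shifted reads is not given in the sources used here.

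Peaks were merged at 1 bp overlap (autosomes, X and Y). Each region took the highest height per library and the gene of its highest peak. Log2 heights of regions in all 4 libraries were quantile-normalised and tested with limma 3.58.1 (R 4.3.3; lmFit, eBayes with a trend) and Benjamini-Hochberg adjustment over 25442 regions; 2 libraries per group limit the precision. Merging, fit and motif matching were tested on simulated data. Motifs were searched on both strands of GRCm38.p6 (0 regions ended beyond a chromosome), and a base could belong to sites of different motifs. RefSeq promoters were used for 8 of the 10 genes, not for Myc and Bhlhe40. Older symbols (Emr1, Mycl1, Sfpi1) were matched through RefSeq synonyms.

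Regions named are, per gene, the nearest to a start, the highest, those confined to 1 group, the 10 smallest p and the largest rise and fall. For the other gene lists, up to 4 promoters each qualified. Regions named for a motif alone, and list regions named for a small p or for belonging to 1 group, were chosen after values were seen. Details of 1 region confined to 1 group, and 1 marker list, are not reported here. The members and lists were chosen with earlier results of these data known. Alternatives covered the score minimum, merging, normalisation, trend, replicate block, absent peaks and each library left out.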

Additional observations from a re-analysis of the deposited data

How the results depend on the processing

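No member region was called under any alternative, with 0 under the replicate block, median centring, no trend, both other merging rules, both stricter score minimums, absent heights set to the lowest height of the library, and each library left out (where an arm has 1 library, that library is assumed to vary like the others). Absent heights set to the lowest gave 13 of 54 at an unadjusted p under 0.05, against 15.4% of all regions. A region entered this fit only if neither control library, or neither IL-4 library, lacked the peak. In every added region the filled gaps therefore lay in 1 group only, and that choice by itself favours a small p. The count of 13 thus cannot show whether heights changed after IL-4. The lowest adjusted p of a named region under any alternative was 0.134. Peak lists without reads, 2 libraries per group and unknown depth limit what could be detected.

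The replicate numbers pair no animals by any label, and the replicate difference in control correlated with that in IL-4 at r = 0.0068 over 25442 regions, so the numbers were taken as names. The replicate block gave 0 member regions and 11 higher and 3 lower regions over the series, and changed no member call.

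The median log2 change of the member regions, -0.16, became -0.12 with median centring, -0.07 with absent heights set to the lowest and 0.07 with peaks above the pooled median, and ranged from -0.04 to 0.10 with 1 library left out. The cause was not tested, except that each of these but median centring fits other regions. The IL-4-only count of 4 became 7 to 9 and the control-only count 5 to 11 with 1 library left out (any of the 4 libraries for the first, any but IL-4 replicate 2 beyond 1.5 times for the second), because a single library then defines a group or fewer libraries must lack the peak. With peaks above the pooled median the counts were 0 and 1, and with a peak tolerated in 1 library of the other group they were 11 and 12. The difference in region number per library ranged from -5 to 1 with 1 library left out.

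Of 213 alternative values for the 20 named regions with a fit, 10 had the other sign, in 7 regions. With 1 library left out, the log2 change at Myc 169 bp upstream ranged from -1.12 to 0.59, at Max 58 bp upstream from -0.47 to 0.09, at Bhlhe40 105 bp upstream from -0.34 to 0.25, at Bhlhe41 17.8 kb upstream from -0.42 to 0.85, at Tfeb 16.5 kb downstream from -0.04 to 2.06 and at Tfe3 18 bp upstream from -0.44 to 0.02. With peaks joined within 100 bp, neighbouring regions became 1, and the value was 0.44 at the Myc start and -0.04 at the joined Bhlhe40 promoter. Sign aside, 14 of the 20 values moved by over 1.5 times with 1 library left out, none of them called.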
